A study of Mus musculus with 225 samples.

Results

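The cells described here are the single cells retained from the autopod, the part of the limb bud that forms the hand, at embryonic day 12.5 (E12.5) of mouse forelimb development. They were chosen by tissue alone: every library labelled as autopod that the authors kept after quality control, which is 76 of the 96 autopod cells sequenced and 76 of the 199 cells retained over both tissues. The embryos were heterozygous for a tau-GFP reporter placed in frame in *Hoxd11*, on a mixed background from C57Bl6 and CBA F1 mice, so that every cell of either tissue carried 1 reporter allele and none was wild type. The paper describes the insertion as inactivating *Hoxd11*, so the reporter allele was also a mutant allele of that gene. Forelimbs of several embryos were pooled and dissociated with collagenase, and only the cells with the brightest GFP were sorted and captured on a Fluidigm C1 chip. The rest of the 199 cells are from the zeugopod, the forearm part of the same kind of pool, and are used here only for comparison.

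At this stage the distal limb bud is a mesenchyme, a loose tissue of dividing progenitors, in which the digit rays begin to condense. Cells of the condensations turn on *Sox9*, the transcription factor that specifies cartilage, and then the collagens of cartilage matrix. Cells between the rays and under the ectoderm keep growing in response to signals of the Fgf, Wnt and Bmp families, and the homeobox genes *Msx1* and *Msx2* and the LIM-homeobox genes *Lhx2* and *Lhx9* are classical genes of that distal mesenchyme. *Hoxd13* and *Hoxa13* mark the autopod as a whole.

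The autopod cells, from pooled forelimbs, were read in 2 sequencing runs, 59 cells in NXT0072 and 17 cells in NXT0143. Each cell had between 187344 and 9437447 reads on genes, with a median of 3076199 in NXT0072 and of 2641867 in NXT0143. Genes with at least 1 read numbered 1992 to 6162 per cell in NXT0072 and 2151 to 5426 in NXT0143. No label ties a cell to an embryo, so the cells are not replicates of a condition, and no p-value was computed. Statements that rest on both runs are given for each run, and the run, the capture and the mixture of cells in it cannot be told apart. In what follows a gene is called detected in a cell at 5 reads, levels are the deposited normalized values (reads divided by a size factor and by gene length), and 95% intervals are exact binomial intervals (Clopper-Pearson) that cover counting error only.

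The labelled tissue was first checked against 6 autopod genes. *Hoxd13* was detected in 54 of the 59 cells of NXT0072 (91.5%, 95% interval 81.3 to 97.2) and in 11 of the 17 cells of NXT0143 (64.7%, 38.3 to 85.8), and its normalized level ranged from 0.402, the value of a gene without reads, to 12319, with a median of 1433 in NXT0072 and of 27.8 in NXT0143. *Hoxa13*, which acts together with *Hoxd13* in digit formation, was detected in 39 and 6 cells, with median levels of 8.48 and 0.808 and a highest level of 1510. *Msx1* was detected in 38 and 8 cells, with a lowest level of 0.323, medians of 128.4 and 0.323, and a highest level of 14667. Each of these 3 genes was found in a smaller share of the cells of NXT0143, and *Hoxa13* and *Msx1* were missing from many cells of both runs.

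*Id2*, an inhibitor of basic helix-loop-helix factors, was detected in 56 of 59 and in 17 of 17 cells, with median levels of 4750 and 3173. *Sox9* was detected in 55 and 17 cells, with medians of 943 and 723 and a highest level of 9175. *Wnt5a*, a secreted Wnt ligand of the distal limb bud, was detected in 56 and 14 cells, with medians of 250 and 154 and a highest level of 7245. These 3 markers were present in most cells of both runs, and what varied was their level. *Hoxd11* itself, whose reporter was used for the sort, was detected in 52 of 59 and 15 of 17 cells.

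**Figure D1:**
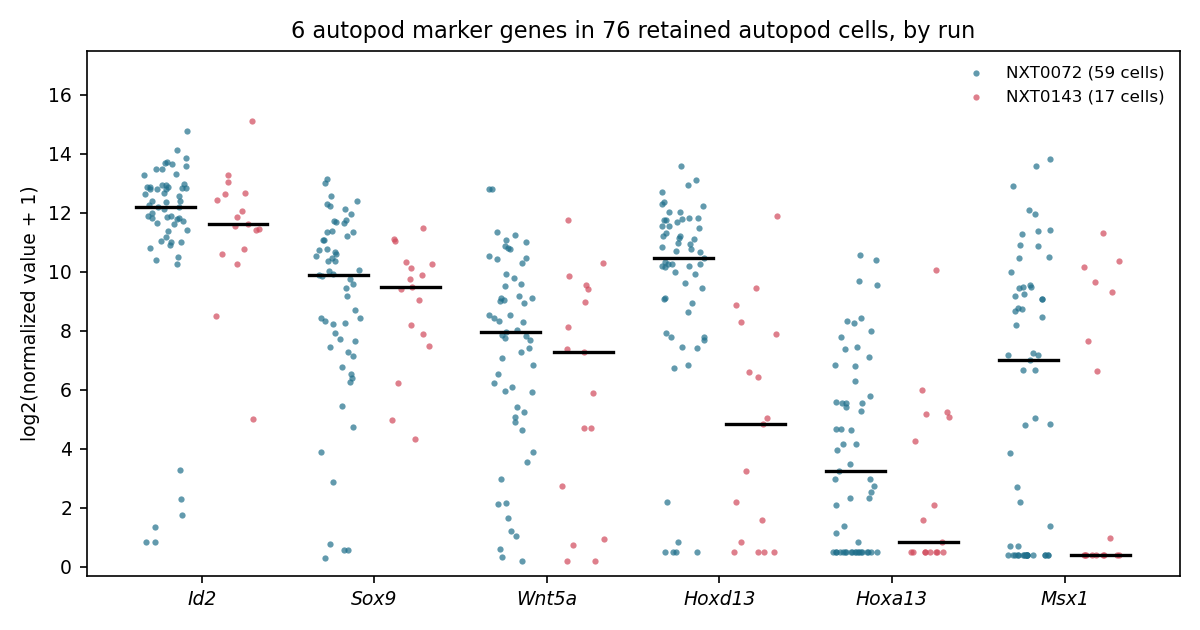
Level of the 6 autopod markers in each of the 76 cells, as log2(normalized value + 1), with NXT0072 (59 cells) and NXT0143 (17 cells) apart and a bar at each median. Most cells lie well above the bottom of the axis for *Id2*, *Sox9* and *Wnt5a*, while *Hoxa13* and *Msx1* have many cells at the bottom, and *Hoxd13* has a wide spread in NXT0143.

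Markers of cells that a sorted limb mesenchyme could still hold were nearly absent. No cell of 76 carried the required number of markers of muscle, epithelium, endothelium, Schwann cells or macrophages, which allows a share of up to 3.95% by the rule of 3 cells in 76, and 2 cells (2.63%) carried markers of tendon. For blood, too few markers were counted to apply the criterion. At least 2 of the 4 zeugopod markers *Shox2*, *Meox2*, *Fstl1* and *Hoxa11* were detected in 10 of 59 cells of NXT0072 and in 0 of 17 cells of NXT0143. Every cell of NXT0143 nonetheless had 1 of the 4, and cells of NXT0072 had 0 to 2.

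The pooled tissue held cells of both sexes, which *Xist*, the RNA that coats the inactive X chromosome, and the Y-linked genes *Ddx3y*, *Eif2s3y*, *Kdm5d* and *Uty* tell apart. *Xist* alone was detected in 10 cells, Y-linked genes alone in 36, both in 24 and neither in 6. By reads, *Xist* made up more than 95% of *Xist* and Y-linked reads together in 21 cells and less than 5% in 38 cells. It lay between these limits in 13 cells, 12 in NXT0072 and 1 in NXT0143, and 4 cells had too few reads to place. The 13 cells in between had a median of 3540 genes and 3003660 reads, against 3709 genes and 2796210 reads in the others. Whether these libraries hold more than 1 cell was not tested, no doublet caller was run, and correlations that lead the account were recomputed without them.

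The first question was which genes were common to the autopod cells. Of 10948 genes with normalized values, 52 were detected in at least 95% of the 76 cells (0.475%). A further 314 genes (2.87%) were detected in 75 to 95% of cells and 891 (8.14%) in 50 to 75%, whereas 5700 (52.1%) were found in 5 to 25% and 269 (2.46%) in none. Most genes were thus detected in a minority of the cells. The 52 common genes took a median of 7.67% of a cell's reads, with a lowest share of 4.03% and a highest of 14.5%.

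**Figure D2:**
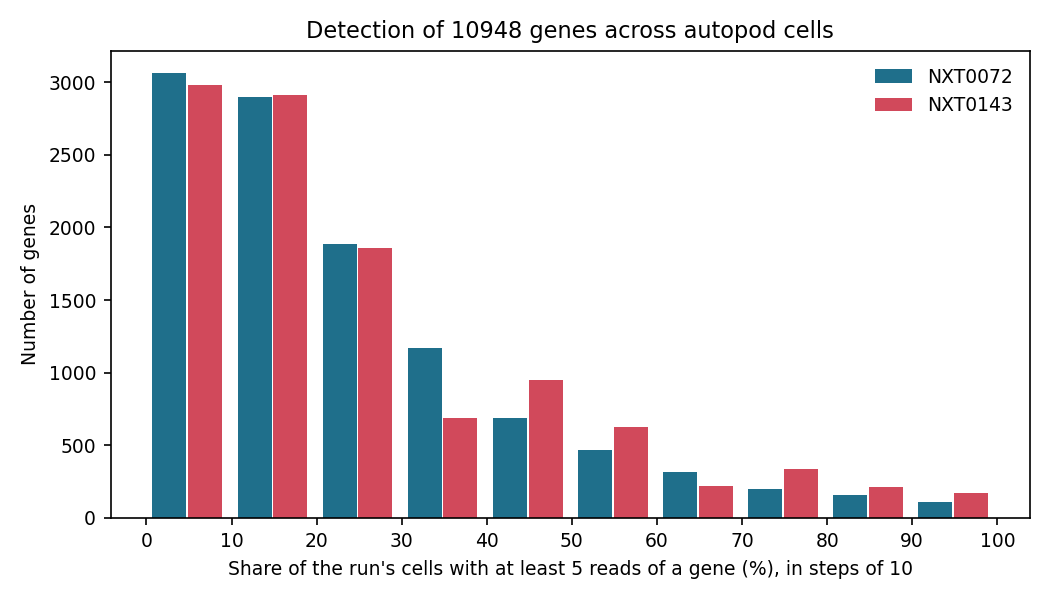
Number of genes (y axis) by the percentage of autopod cells in which they had at least 5 reads (x axis, bins of 10%), for the 59 cells of NXT0072 and the 17 cells of NXT0143. The lowest bin is the fullest, with 3064 genes in NXT0072 and 2983 in NXT0143. In NXT0143 the counts fall unevenly, with 688 genes at 30 to 40% and 947 at 40 to 50%. With 17 cells only certain percentages can occur, and the bins hold unequal numbers of them, so this unevenness is not a feature of the genes.

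Only 9 of these genes were detected in every cell: *Rn18s-rs5*, *Rpl8*, *Arglu1*, *Malat1*, *Gpc3*, *Mdk*, *Nedd4*, *Son* and *Actb*. Several of the 52 encode general machinery. *Rpl8* (a protein of the ribosome) had a median normalized level of 3575, and *Tubb5* (a tubulin) a median of 1091. Others belong to the biology of growing mesenchyme. *Gpc3*, a glypican that holds growth factors at the cell surface, had a median of 1626, *Mdk*, the heparin-binding growth factor midkine, a median of 1524 with a range of 23.3 to 16787, and *Sox11*, a factor of progenitor cells, a median of 1670. Reads of *Mdk* can be shared with its near-identical copy *Mdk-ps1*, which was also among the 52.

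The *Id* genes, which are direct targets of Bmp signalling, were among the 4 genes with the highest medians, together with *Rn18s-rs5*, a ribosomal RNA, at 9762. *Id3* (chr4:136143497-136145755, plus strand, GRCm38) had a median of 12168 and was detected in 74 cells. Its level nonetheless ranged from 0.6 to 203246. *Id1* (chr2:152736251-152737410, plus strand) had a median of 8715 and *Id2* (chr12:25093799-25097140, minus strand) a median of 4369, each detected in 73 cells. In the zeugopod the 3 genes were detected in 90.2% (*Id3*), 75.6% (*Id1*) and 70.7% (*Id2*) of cells. Among zeugopod cells 94 genes reached the criterion of 95%, and 40 genes did so in both tissues, which is 76.9% of the autopod list and 42.6% of the zeugopod list.

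Presence in nearly all cells did not mean an even level. Taken alone, NXT0072 had 53 genes at 95% and NXT0143 had 59, of which 24 were shared. In NXT0143 a gene detected in 16 of 17 cells reached only 94.1%, so there the criterion asked for every cell. *Malat1*, a nuclear RNA, had a median of 899 in NXT0072 and of 2654 in NXT0143, and *Sox11* medians of 1293 and 3208. *Shfm1* went the other way, with 1668 and 532.

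The main axis of variation among autopod cells followed how many genes a cell had detected. In NXT0072 the first principal component of the 1000 most variable genes held 25.3% of the variance, and the second and the third held 3.40% and 2.41%. Across the 59 cells the first component followed the number of genes detected (Spearman rho 0.957) and the reads per size factor, which stands for RNA content relative to the spike-ins (rho 0.970). It followed sequencing depth less closely (rho 0.513 with reads), and 99.4% of genes had loadings of the same sign. In NXT0143 the first component held 17.8% and followed genes detected with a rho of 0.907, but reads per size factor with a rho of 0.605. Normalized levels are themselves reads divided by the size factor, so on that scale a relation with reads per size factor is partly built in. With counts per 1000000 reads on genes (CPM) the first component in NXT0072 held 10.1% of the variance. On that scale it followed genes detected with a rho of 0.938 and reads per size factor with a rho of 0.935, and 91.5% of loadings had the same sign.

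**Figure D3:**
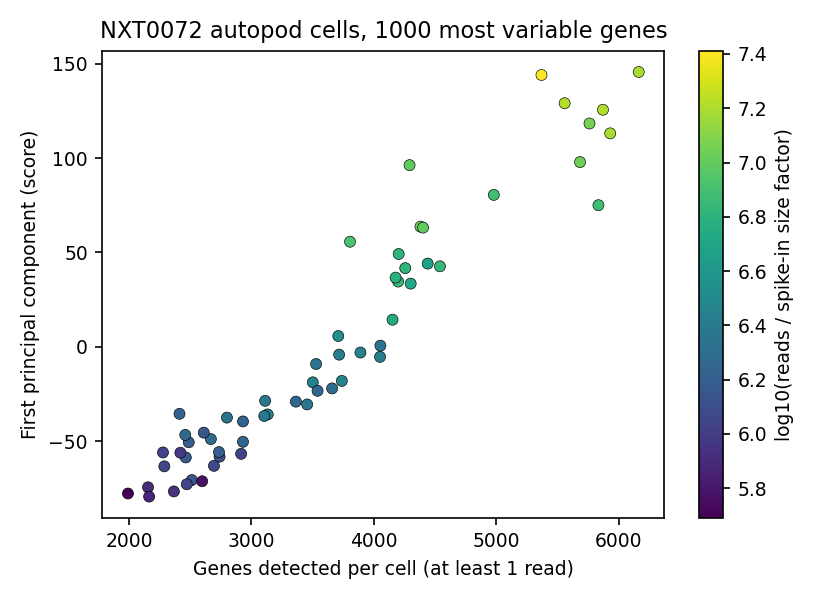
First principal component of autopod cells (y axis, arbitrary units) against the number of genes detected per cell (x axis), for the 59 cells of NXT0072, each point a cell coloured by log10 of its reads per size factor. The score rises with the number of genes detected (rho 0.957), and the cells with the highest reads per size factor are at the top right.

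Genes differed in how far they followed this axis. Over the 3935 genes detected in at least 25% of the cells of NXT0072, the median rho of a gene's normalized level with genes detected was 0.387. It was 0.618 for genes of glycolysis, 0.577 for chaperones of the endoplasmic reticulum and 0.491 for ribosomal proteins. The cartilage genes stood at 0.0260, with *Sox9* itself at 0.0843, and so were, of the 19 lists, the one that followed the axis least on this scale. On the CPM scale the cartilage list had a median of −0.122 and *Sox9* a rho of −0.420 in NXT0072 and of −0.397 in NXT0143: cells with fewer genes detected gave a larger share of their reads to *Sox9*. Because of this axis, correlations between genes are given from here on as rank correlations given the number of genes detected.

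Bimodal genes were those that separated the 59 cells of NXT0072 into a low and a high class. The criterion asked that each class hold at least 20% of cells, that the class means lie at least 5 apart on the log2(normalized value + 1) scale and that at most 10% of cells lie in the middle. A gene was tested if it had at least 5 reads in 20 to 80% of these cells, so each was undetected in part of them. Of 4722 genes tested, 1425 met the criterion (30.2%). A split of this kind was thus common among genes chosen for partial detection, and the low class can be cells without reads. The share that met the criterion differed with the mean log2 level of the gene. It was 5.33% at levels of 0.53 to 1.66 and 33.1% at 1.66 to 2.22. At 2.22 to 3.08 it was 47.2%, and at 3.08 to 8.45 it was 35.1%. In the 17 cells of NXT0143 the same criterion was met by 1976 of 4678 genes (42.2%), and 609 of the 1425 genes (42.7%) were among them, close to that background. At the threshold of NXT0072, 946 of the 1425 genes (66.4%) had 20 to 80% of the cells of NXT0143 in the high class, and 462 (32.4%) had fewer. The matching share over all 4722 genes was not computed, so these counts do not show that the splits recur in NXT0143.

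The genes with the widest gap between classes were of mixed function. *Mfap4*, which encodes a protein of microfibrils, was highest with a gap of 10.80 (log2) and 19 of 59 cells in the high class, where its median level was 4619, and 11 of 17 cells of NXT0143 were above the same threshold. *Sdc4*, a cell surface proteoglycan, had a gap of 10.01 with 22 and 13 high cells, and *Anxa5*, an annexin, a gap of 10.57 with 13 and 7. *Ndufs8*, a subunit of respiratory complex I, was high in 19 of 59 and 8 of 17 cells. *Hsd17b10*, a mitochondrial dehydrogenase also among the 25 widest, followed the number of genes detected closely, with a rho of 0.69, against a median of 0.383 over all bimodal genes and 0.365 over all genes tested.

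Of the limb transcription factors, 8 of the 14 tested were bimodal, beside the 30.2% of all genes. That share was not matched to the list for level, so whether the list differs from genes of similar level was not tested. *Msx1* (chr5:37820485-37824583, minus strand) was split with a gap of 8.47 into 32 high and 27 low cells. The high cells had a median level of 701 with a lowest value of 100.6, and no low cell was above 31.9. In NXT0143, 7 of 17 cells were above the threshold, and in the zeugopod 1 of 58 and 0 of 65 cells were. *Lhx9* (chr1:138825186-138848577, minus strand) was high in 30 of 59 and 6 of 17 cells, with a gap of 7.96, a median of 548 in the high cells and a highest low value of 15.2.

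*Msx2* was high in 19 of 59 and 5 of 17 cells, *Lhx2* in 16 and 6, and *Dlx5*, a homeobox gene of the distal limb and of bone, in 14 and 1. The homeobox genes *Prrx1* and *Prrx2*, general markers of limb mesenchyme, were high in 31 and 23 cells of NXT0072 but in 5 and 0 cells of NXT0143. *Tbx5*, which specifies the forelimb, was high in 16 and 9 cells. That each of these factors was high in only a fraction of the cells of NXT0072 follows from the criterion that chose them.

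Lists of the cell cycle and of cartilage are to be read beside the same 30.2%, which was not matched to them for level. Of the genes of G2 and mitosis (G2/M), 11 of 20 tested were bimodal, among them *Ube2c*, which hands ubiquitin to the substrates of the anaphase-promoting complex, with a gap of 9.43 and 19 of 59 and 2 of 17 high cells. *Mki67*, the proliferation antigen, was high in 12 and 2 cells. Of the S phase genes 6 of 17 were bimodal, with *Rrm1*, a subunit of ribonucleotide reductase, high in 16 and 6 cells, a count close to that share. In the same run 4 of 6 cartilage genes tested were bimodal, with *Col9a3* high in 13 and 6 cells, *Sox5* and *Sox6* each in 16 and 9 and *Col11a1* in 25 and 7.

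A few bimodal genes did not follow the number of genes detected, and 62 of the 1425 had a rho between −0.1 and 0.1. The matching count over the 4722 genes tested was not computed, so this number does not set bimodal genes apart from the others. *Sfrp2*, a secreted modulator of Wnt signalling, had a rho of 0.05 and was high in 23 of 59 and 10 of 17 cells. *Itm2a*, a membrane protein of early cartilage, had a rho of 0.06 with 14 and 7 high cells, and *Nog*, the Bmp antagonist noggin, a rho of −0.03 with 13 and 2. The stress gene *Hspa1a* had a rho of −0.02 with 12 and 4 high cells. None of the 8 immediate early genes tested was bimodal. Of the large gene lists, 15 of 50 subunits of oxidative phosphorylation and 4 of 37 ribosomal protein genes were, beside 30.2% of all genes. These lists, too, were not matched for level.

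The next question was which genes varied together, apart from the *Hoxd* genes, which were left out. Among the 3935 genes the median correlation of a pair across the 59 cells of NXT0072 was 0.0222, and 23119 of 7740145 pairs (0.299%) had a rho of at least 0.4. Without the correction for genes detected the median pair was at 0.167. Clustering gave 16 groups of at least 5 genes that together held 3.15% of these genes. The runs offered a check that the grouping had not used: in the 17 cells of NXT0143 the median pair of a group was above 0 in 12 groups and at least 0.2 in 6. The median over groups was 0.482 in NXT0072 and 0.112 in NXT0143. All pairs in NXT0143 had a median of 0.0283, with 5th and 95th percentiles of −0.401 and 0.465.

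The largest group held 41 genes, of which 14 are on the G2/M list. The genes with the highest mean correlation to it were *Ube2c*, *Kif15*, *Cdc20*, *Kif23*, *Cenpf*, *Tpx2*, *Kif11* and *Nusap1*: kinesins and spindle proteins (*Kif15*, *Kif23*, *Kif11*, *Tpx2*, *Nusap1*), a kinetochore protein (*Cenpf*) and the activator of the anaphase-promoting complex (*Cdc20*). Promoters are shown for the first 4 because genes of this phase are classically driven through a CCAAT box and a cell cycle homology element. The sequences are from RefSeq (GRCm38.p6) and cover the 150 bases before the gene start, read 5′ to 3′ on the strand of the gene, with capitals marking CCAAT and TTTGAA on either strand (ATTGG and TTCAAA on the other).
Ube2c: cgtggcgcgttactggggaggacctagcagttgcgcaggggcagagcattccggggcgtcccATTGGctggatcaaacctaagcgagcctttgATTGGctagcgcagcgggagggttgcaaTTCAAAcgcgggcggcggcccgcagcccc
Kif15: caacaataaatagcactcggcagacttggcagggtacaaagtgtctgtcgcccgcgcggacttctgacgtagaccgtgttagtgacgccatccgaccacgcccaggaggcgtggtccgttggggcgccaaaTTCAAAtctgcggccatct
Cdc20: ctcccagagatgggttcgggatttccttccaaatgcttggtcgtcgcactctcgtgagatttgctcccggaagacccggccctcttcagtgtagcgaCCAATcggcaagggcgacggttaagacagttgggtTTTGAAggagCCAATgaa
Kif23: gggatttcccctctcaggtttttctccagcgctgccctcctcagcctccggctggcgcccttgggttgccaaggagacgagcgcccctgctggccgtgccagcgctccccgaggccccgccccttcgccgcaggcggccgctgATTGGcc
They lie at chr2:164769779-164769928 (*Ube2c*, plus strand), chr9:122950931-122951080 (*Kif15*, plus), chr4:118437344-118437493 (*Cdc20*, minus) and chr9:61946800-61946949 (*Kif23*, minus). *Ube2c* and *Cdc20* each hold 1 TTTGAA and 2 CCAAT, *Kif15* holds 1 TTTGAA and no CCAAT, and *Kif23* 1 CCAAT and no TTTGAA. Over all 32851 RefSeq promoters, the same window holds TTTGAA in 9.07%, CCAAT in 24.5% and both in 2.24%. A match is a run of letters and says nothing of what binds there.

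It also held *Top2a*, *Birc5* and the limb factor *Prrx2*. The median pair within this group had a rho of 0.514 in NXT0072 and of 0.408 in NXT0143. In NXT0143 the 8 leading genes were each detected in 0 to 4 of 17 cells, while *Smc2* and *Smc4* were detected in 8. For many of these genes the value in NXT0143 therefore rests on few cells. In the zeugopod the same genes gave 0.332 and 0.399 in its 2 runs. In single cells, *Ube2c* and *Cenpf* were detected together in 20 of 59 cells, *Ube2c* alone in 1, *Cenpf* alone in 6 and neither in 32, with a rho of 0.80. In the listed G2/M genes, 131 of 136 pairs had a rho of at least 0.4. Of 22 such genes, 9 cells of NXT0072 had none, 19 cells had 1 or 2, 12 cells had 3 to 9 and 19 cells (32.2%, 20.6 to 45.6) had 10 or more. In NXT0143 these counts were 8, 6, 1 and 2 of 17 cells. The S phase genes, whose products copy DNA, were far looser, with a median pair of 0.163 and 7 of 120 pairs at 0.4.

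A pair of smaller groups held cartilage genes. In the first, *Sox9* (chr11:112782224-112787760, plus strand) varied with *Iqcf3*, *Cdc42ep3*, *Tgfbi*, *Mef2c*, *Tcf7l2*, *Fgfr2*, *Sox6*, *Pcsk6* and *Col9a1*, with a median pair of 0.451 in NXT0072 and 0.319 in NXT0143. *Mef2c* encodes a transcription factor of maturing cartilage and *Fgfr2* an Fgf receptor of condensations. The correlations of *Sox9* with *Tcf7l2*, a nuclear effector of Wnt signalling, were 0.69 and 0.79, those with *Cdc42ep3*, an effector of a small GTPase, 0.66 and 0.63, and those with *Iqcf3* 0.77 and 0.51. In the zeugopod the median pair of the same 10 genes, which had been grouped on the autopod cells of NXT0072, was 0.142 and 0.111. The difference between tissues was not tested.

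The other group held *Col2a1*, the main collagen of cartilage, with *Col9a3*, *Cdkn1c*, *Fibin* and *Ldhb*, and its median pair was 0.536 and 0.331. *Col2a1* and *Col9a3* were detected together in 17 of 59 cells, *Col2a1* alone in 12, *Col9a3* alone in 3 and neither in 27. Their correlation was 0.64, and 0.82 in NXT0143. *Cdkn1c* encodes p57, an inhibitor of cyclin-dependent kinases. Its correlations with *Sox9* were 0.63 and 0.27. Over the cartilage list, fixed beforehand, the median pair was 0.385 in NXT0072 and 0.239 in NXT0143. In the zeugopod the same list had higher medians, 0.421 in its run NXT0142 and 0.569 in its cells of NXT0143. The cross pairs of the cartilage genes with the G2/M genes had a negative median, −0.253 in NXT0072 and −0.295 in NXT0143. At least 3 G2/M genes were detected in only 3 of the 17 cells of NXT0143. The cartilage genes differed in this: in NXT0072 *Sox9* had rhos of −0.43 with *Ube2c* and −0.39 with *Cenpf*, whereas *Col2a1* had −0.12 and 0.02.

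*Msx1* was the centre of a further set, which average-linkage clustering did not return as a group and which was put together after the values of both runs had been seen. It holds *Msx1*, *Msx2*, *Lhx2*, *Lhx9*, *Dlx5* and *Dach1*, the last a nuclear factor of distal limb outgrowth. All 15 pairs were positive in both runs, with a median of 0.530 in NXT0072 and 0.450 in NXT0143. *Msx1* and *Lhx9* had a rho of 0.66 in NXT0072 and 0.51 in NXT0143, *Msx1* and *Msx2* 0.63 and 0.72, *Msx1* and *Dlx5* 0.57 and 0.45, and *Lhx2* and *Lhx9* 0.53 and 0.68. The weakest of the pairs with *Msx1* in NXT0143 was *Lhx2*, with a rho of 0.42 in NXT0072 and 0.14 in NXT0143. The genes overlapped in part of the cells. *Lhx9* was detected in 84.2% of the cells of NXT0072 with *Msx1* and in 28.6% of those without, and the counts were 32 cells with both, 6 with *Msx1* only, 6 with *Lhx9* only and 15 with neither.

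At least 3 of the 6 genes were detected in 32 of 59 cells of NXT0072 (54.2%, 40.8 to 67.3) and in 7 of 17 cells of NXT0143 (41.2%, 18.4 to 67.1), none in 9 and 5 cells, and all 6 in 12 and 1. *Dlx5* was detected in 23 of the 38 cells with *Msx1* in NXT0072 and in 2 of 8 in NXT0143, and *Lhx2* in 21 of 38 and 5 of 8. The whole list of limb transcription factors did not behave as 1 set, with a median pair of 0.110 and 9 of 136 pairs at 0.4 or above.

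The genes that ran against this set were *Ebf1* and *Ebf3*, transcription factors of connective tissue progenitors, and *Sulf1*, which edits heparan sulphate, again chosen after values were seen. All 18 cross pairs were negative in both runs, with medians of −0.418 and −0.419. *Ebf1* (chr11:44617317-45008091, plus strand) was detected in 13.2% of the cells of NXT0072 with *Msx1* and in 71.4% of those without, and only 5 of 59 cells had both. In NXT0143, 1 cell had both, 7 had *Msx1* only, 8 *Ebf1* only and 1 neither. *Msx1* and *Sox9*, by contrast, had a rho of 0.0152 in NXT0072 and −0.00637 in NXT0143, and 35 of the 38 cells with *Msx1* in NXT0072 also had *Sox9*. The correlations of *Msx1* with *Col2a1* were −0.26 and −0.78, and the cross pairs of the 6 genes with the cartilage list had medians of −0.0494 and −0.240.

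**Figure D4:**
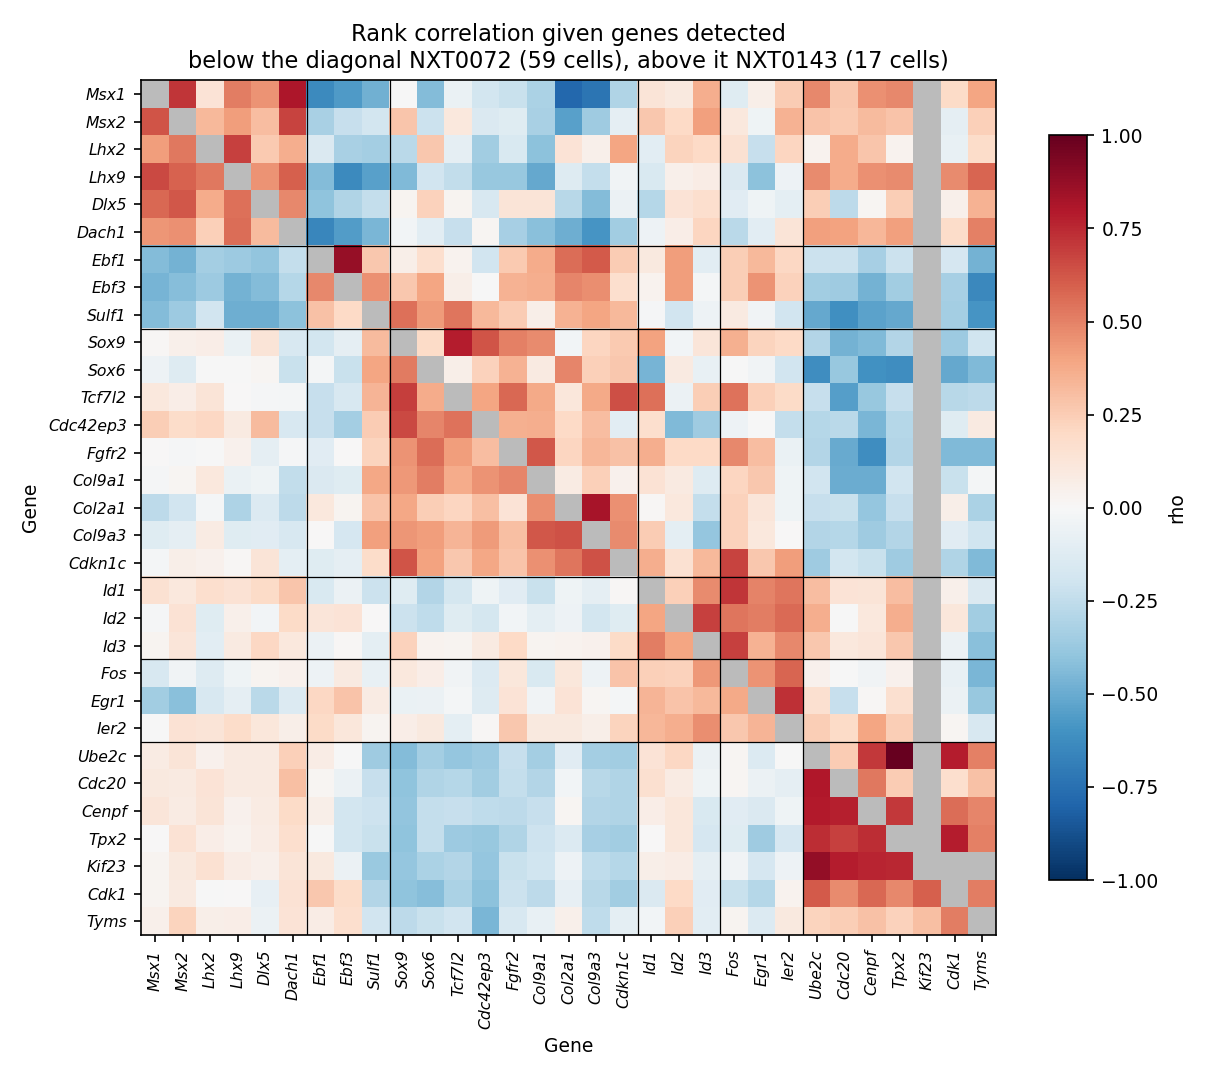
Rank correlation given genes detected, for pairs of genes (rows and columns) of the *Msx1* set, the 3 genes that ran against it, cartilage, *Id*, immediate early and cell cycle genes, with NXT0072 (59 cells) below the diagonal and NXT0143 (17 cells) above it, and grey where a gene did not vary. Blocks of mostly positive correlation lie along the diagonal, and *Ebf1*, *Ebf3* and *Sulf1* are negative with all 6 genes of the *Msx1* set.

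Genes that respond to Bmp signals and to growth factors varied together in part. *Id1* and *Id3* had a rho of 0.51 in NXT0072 and 0.48 in NXT0143, and *Id2* and *Id3* 0.39 and 0.68. Over the Bmp response list the median pair was 0.283 and 0.238, and 2 of 21 pairs were at 0.4 or above in NXT0072. The *Id* and *Msx* genes were less related, with *Id2* and *Msx1* at −0.01 and 0.10. *Msx1* and *Bambi* had a rho of 0.29 in NXT0072 and −0.32 in NXT0143. The immediate early genes, which switch on within minutes of a stimulus, had a median of 0.245 in NXT0072 and of 0.448 in NXT0143, where the median over all pairs was 0.0283. Of their 45 pairs, 1 was at 0.4 or above in NXT0072. *Fos*, the best known of them, had a rho of 0.43 and 0.68 with *Id3*.

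Lists of house-keeping genes had lower medians, which still lay above the median of all pairs. The median pair was 0.0939 in NXT0072 and 0.186 in NXT0143 among ribosomal proteins, with 15 of 1035 pairs at 0.4 or above in NXT0072, and 0.0613 among subunits of oxidative phosphorylation, with 16 of 2278, beside the 0.299% of all pairs. It was −0.0155 in the Wnt pathway and −0.0571 among interdigit and retinoic acid genes. The other groups differed in how far they held in the second run. A group of 5 genes of DNA replication and division, *Hist1h4d*, *Cdk1*, *Hist1h2ao*, *Tyms* and *Cenpw*, had medians of 0.519 and 0.450, the highest of the groups in NXT0143, and a group around *Tecr* and *Gsk3b* had 0.476 and 0.288. Genes of these groups of 5 and of the *Col2a1* group were named after their values were seen. A group around *Park7* and *Slc25a4* had medians of 0.462 and 0.0788, one around *Nipbl* and *Cct2* 0.420 and −0.0479, one around *Eif4b* and *Psat1* 0.460 and 0.0203, and one around *Ergic3* and *Serpine2* 0.456 and 0.107. The rho of *Hoxa13* with *Ube4a*, chosen after its values were seen, was 0.49 in NXT0072 and −0.15 in NXT0143, whereas that with *Msx1* was 0.36 and 0.48. *Xist* and *Tsix* had a rho of 0.63 and 0.73, but they overlap on opposite strands and the reads carry no strand, so the 2 genes cannot be told apart.

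The 17 cells of NXT0143 differed from the 59 of NXT0072 in more than *Hoxd13*. Of 4948 genes compared, 343 had a mean log2 level higher by at least 2 in NXT0143 on both the normalized and the CPM scale (6.93%) and 91 a lower one (1.84%). The median difference over all genes was 0.26 on the normalized scale and 0.39 on the CPM scale. These values describe the cells of 2 runs and not a condition.

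*Ppp1r15a*, which restores translation after stress, had the largest difference of the genes higher in NXT0143, 5.65 (log2), with a mean of 7.48 ± 3.81 (SD, n = 17 cells) against 1.83 ± 2.78 (SD, n = 59 cells), and was detected in 14 of 17 and 14 of 59 cells. *Dnaja1*, a chaperone of the heat shock family, was higher by 5.40 with 15 of 17 and 35 of 59 cells, and *Klf13*, a zinc finger factor, by 5.08. Of the immediate early list 7 of 13 genes were higher and none lower, including *Atf3* by 4.06, *Egr1* by 3.44, *Ier2* by 3.34 and *Btg2* by 3.10, with a median over the list of 2.23. *Egr1* had a median level of 398 in NXT0072 and of 2735 in NXT0143. *Fos* stood at 1286 and 5461.

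Of 12 chaperones of the endoplasmic reticulum 4 were higher, beside 6.93% of all genes, among them *Hspa5* by 4.05 and *Pdia3* by 3.24. Among the zeugopod cells, which were also read in NXT0143 and in 1 other run, the corresponding differences were 0.33 for *Ppp1r15a*, 0.19 for *Dnaja1*, 1.21 for *Egr1* and 1.03 for *Atf3*. These 4 differences were smaller between the zeugopod runs than between the autopod runs, which was not tested.

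Of the cartilage list 3 of 8 genes were higher in NXT0143, against 6.93% of all genes: *Col9a2* by 3.78, *Col2a1* by 2.94 and *Sox6* by 2.43. The list had a median difference of 1.23, and *Sox9* (−0.05) and *Col9a1* (−0.24) had differences near 0. *Col2a1* was detected in 14 of 17 and 29 of 59 cells.

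Genes lower in NXT0143 were led by *Hoxd13* (chr2:74668310-74671599, plus strand), with a mean of 4.66 ± 3.75 (SD, n = 17 cells) against 9.52 ± 3.35 (SD, n = 59 cells), a difference of −4.86. *Cdh11*, a cadherin of mesenchyme, followed with −4.09, detected in 10 of 17 and 56 of 59 cells, then *Dpy30*, a subunit of histone methyltransferases, with −4.07 and 5 and 46 cells. The limb factors *Prrx2*, *Prrx1* and *Twist1* differed by −3.00, −2.40 and −2.20. Of 17 G2/M genes 5 were lower, beside 1.84% of all genes, *Top2a* by −2.43, *Ccna2* by −2.29, *Ube2c* by −2.22, *Cdk1* by −2.18 and *Bub1* by −2.15, and the list had a median of −1.34. At least 3 G2/M genes were detected in 31 of 59 cells of NXT0072 (52.5%, 39.1 to 65.7) and in 3 of 17 cells of NXT0143 (17.6%, 3.80 to 43.4).

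The Bmp response list had no gene past 2 in either direction and a median of −0.18, and ribosomal proteins had 1 of 50, with a median of −0.29. Of the zeugopod markers only *Fstl1* entered this comparison, and it was higher in NXT0143 by 2.68 (2.90 with CPM).

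**Figure D5:**
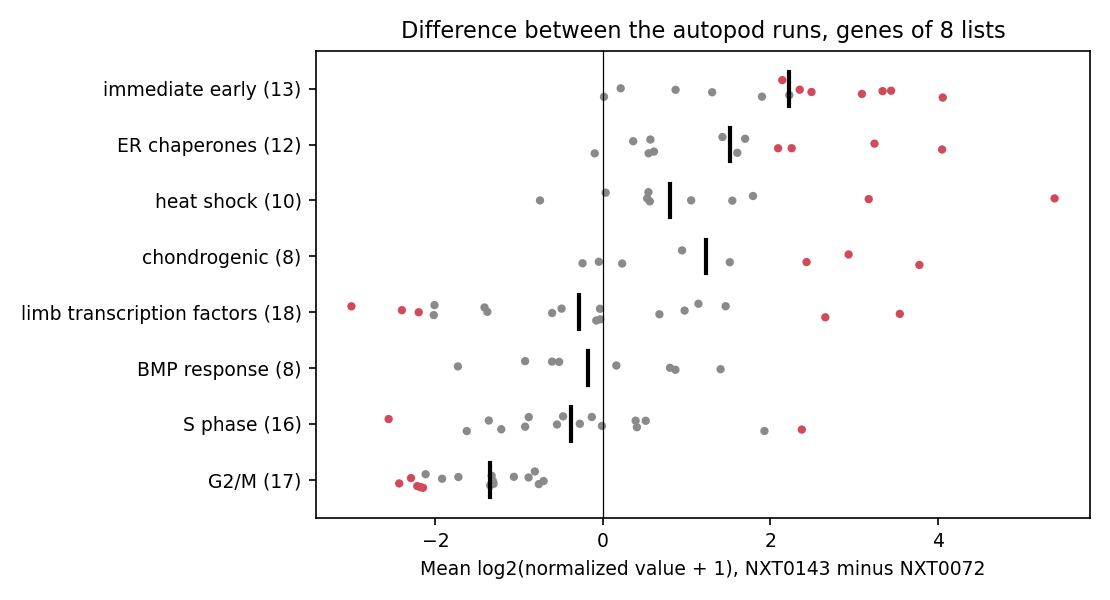
Difference of mean log2(normalized value + 1), NXT0143 minus NXT0072, of autopod cells (x axis) for the genes of each list (rows), each point a gene, red where the difference was at least 2 in size on both scales, with black bars at the medians and a line at 0. Immediate early genes lie mostly to the right, with a median of 2.23, and G2/M genes to the left, with a median of −1.34.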

How the data were processed

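Single-cell RNA-seq libraries of E12.5 forelimb autopod cells were made with SMARTer v2 and Nextera XT chemistry, without strand information or molecular identifiers. Mapping was to mm10 (GRCm38) by Bowtie2, and the raw counts that the authors deposited are the reads of 23165 genes per cell. A second deposited table holds normalized signal for the 10948 genes and 199 cells that the authors retained. For this signal they scaled reads by size factors based on spike-ins, with a common mean per run, then divided by the length of the gene, and genes without reads take the lowest value that their length allows. The order of the columns of spike-in counts did not follow their names, and these counts were not used. Columns of per-sample values left out for want of a label numbered 0.

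CPM was computed here from the raw counts, and log2 values used a pseudocount of 1. No test was run, as cells of pooled tissue are not replicates. Genes entered the correlations with 5 reads in at least 25% of cells. Spearman correlations were given the number of genes detected, *Hoxd* genes were left out, and groups were cut from an average-linkage tree of 1 minus rho at 0.6. Scripts used Python 3.11.15, pandas 2.3.3, NumPy 2.4.6, SciPy 1.17.1 and matplotlib 3.10.9. The bimodality and grouping steps were run on simulated counts on the CPM scale and with plain correlations. That run did not cover the normalized values or the correction for genes detected used here. Genes are named by rule: the 20 highest medians among the common genes, the 25 widest bimodal gaps, the leading 8 genes of the 6 largest groups, the 10 largest run differences in each direction, bimodal or list members, and the markers. Others are said to be chosen after their values were seen. The members and lists were chosen with earlier results of these data known.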

Additional observations from a re-analysis of the deposited data

How the results depend on the processing

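No paired analysis was possible because the numbers in the labels only name cells of pooled tissue and pair no samples. Thinning to 500000 reads kept 72 cells, 56 of NXT0072 and 16 of NXT0143. Leaving out the 13 cells with mixed *Xist* and Y-linked reads was chosen after seeing the data. The share of genes in nearly all cells, 0.475%, was 1.12% with 1 read as the minimum and 1.04% at 90% of cells. Bimodal genes numbered 523 with a pseudocount of 10, against 1425. Of the 1425, 345 were among these 523, and 886 also met the criterion with CPM. *Lhx9* and *Ube2c* met it in both settings. *Msx1* failed it with a pseudocount of 10, and *Msx2*, *Sox5* and *Tbx5* failed it with CPM. *Dlx5* met it with CPM but not with pseudocounts of 0.1 or 10 or after thinning. The number of groups moved most: from 16 to 167 with plain correlations, 8 with CPM, 6 with thinned CPM, 96 and 2 with filters of 10% and 50% of cells, 1 and 212 with the tree cut at 0.5 and 0.7, and 61 without the mixed cells. The group of dividing genes kept 32 of its 41 genes together with CPM, 28 at the cut of 0.5 and 29 of 39 without the mixed cells, and the *Sox9* group 7 of 10 with CPM, 4 at the cut of 0.5 and 4 without the mixed cells. Lists with a median rho of at least 0.2 numbered 4, and 12 with plain correlations. The first component held 10.1% of the variance with CPM. Genes higher in NXT0143 numbered 606 and 96, and lower 192 and 13, with pseudocounts of 0.1 and 10, and 591 were higher with thinned CPM. Cells with both *Xist* and Y-linked reads numbered 40 at 1 read, against 24. The causes were not tested. In NXT0072 the rho of *Msx1* and *Lhx9* ranged from 0.61 to 0.71 over plain, CPM, thinned and mixed-free settings, that of *Msx1* and *Ebf1* from −0.43 to −0.36 and that of *Lhx2* and *Lhx9* from 0.38 to 0.62. The 17 cells of NXT0143 limit the precision of every correlation given there.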
